A study of Rattus norvegicus with 18 samples.

Results

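The genes described here encode the NMDA receptor subunits GluN1 (Grin1, ENSRNOG00000011726), GluN2A (Grin2a, ENSRNOG00000033942) and GluN2B (Grin2b, ENSRNOG00000008766) and the alpha subunit of calcium/calmodulin-dependent kinase II (Camk2a, ENSRNOG00000018712). They were chosen by name and identifier, as 4 of the 32662 gene rows in the count tables. The animals were adult Long-Evans rats, an outbred strain. Naive rats came straight from their home cages, and trained rats were killed 1 h or 6 d after inhibitory avoidance, a task in which a single foot shock teaches the animal to avoid a compartment. RNA of punches from the dorsal hippocampus (dHC) and the prelimbic part of the medial prefrontal cortex (PL) was combined over 5 rats per pool, and each of the 6 groups (dHC and PL, each naive, 1 h and 6 d) held 3 pools, giving 18 libraries. Because each pool averages over rats, the p-values measure the spread between pools and not that between animals. In bulk tissue, fewer cells of a type and less RNA per cell cannot be told apart.

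The NMDA receptor is a glutamate-gated channel that opens only when glutamate is bound and the membrane is depolarised, which lets it register coincident activity. Every NMDA receptor contains GluN1, and its GluN2 subunits set how long the channel stays open and which proteins bind its tail. GluN2B dominates in the immature forebrain, and GluN2A is added as circuits mature. Calcium entering through the receptor activates CaMKII, which phosphorylates itself, binds the GluN2B tail and is required for hippocampal long-term potentiation and spatial learning. The alpha subunit is among the most abundant proteins of forebrain excitatory synapses.

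The stretches upstream of the annotated starts of Camk2a and Grin1 are shown, since the reference held no such stretch for Grin2a or Grin2b. They come from RefSeq on the build GRCr8, which matched 2 of the 4 genes by symbol, and no measurement in the study reads these promoters. Each holds the 250 bases before the start, at chr18:56648930-56649179 on the plus strand for Camk2a and at chr3:28528755-28529004 on the minus strand for Grin1, with capitals on every match to TGACG or its reverse complement, the core of the cAMP response element bound by CREB.
Camk2a: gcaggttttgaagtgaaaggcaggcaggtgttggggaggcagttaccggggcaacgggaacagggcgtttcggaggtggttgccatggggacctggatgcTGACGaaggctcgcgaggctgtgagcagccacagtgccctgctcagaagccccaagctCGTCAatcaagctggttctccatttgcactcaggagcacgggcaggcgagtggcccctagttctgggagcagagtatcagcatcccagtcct
Grin1: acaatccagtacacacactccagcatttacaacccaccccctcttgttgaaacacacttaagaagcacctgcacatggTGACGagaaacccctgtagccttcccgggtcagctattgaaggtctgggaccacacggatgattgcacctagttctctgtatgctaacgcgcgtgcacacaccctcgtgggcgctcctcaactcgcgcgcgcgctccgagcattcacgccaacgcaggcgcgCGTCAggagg
Both windows held 2 matches to TGACG, on opposite strands, beginning 150 and 92 bases before the start of Camk2a and 172 and 10 bases before that of Grin1. At least 1 such match was present in 18.2% of the 33469 windows of this kind in the table. Searched on both strands, neither window held the full element TGACGTCA (in 1.59% of windows, each of which also counts for TGACG), the EGR letters GCGNGGGCG (4.29%), the AP-1 letters TGANTCA (6.34%) or the GC box GGGCGG (30.5%). The Grin1 window held 19 CpG dinucleotides and the Camk2a window 10, against a median of 5 over all windows.

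Read totals over genes ran from 7463875 to 9215695 per library. Each of the 4 genes was counted well above the limit of 3 counts, at 9801 to 28167 reads per library for Camk2a, 4473 to 5913 for Grin1, 704 to 2829 for Grin2a and 523 to 1349 for Grin2b. Levels are given as CPM, the usual depth-scaled read counts, here with TMM factors. CPM does not correct for transcript length, so levels of different genes are not set against each other. In the RefSeq table Grin1 touches the neighbouring gene Lrrc26, Grin2a and Grin2b each overlap an uncharacterised long non-coding RNA, and Camk2a overlaps no gene. The strand setting of the counting is not given in the sources used here, so reads from such overlaps could not be separated.

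Grin1, which encodes the subunit common to all NMDA receptors, was at nearly the same transcript level in both regions. Its CPM in dHC was 648, 652 and 623 in the naive pools, 617, 547 and 589 at 1 h, and 569.5, 661 and 653 at 6 d. In PL it was 662, 650.1 and 587 in the naive pools, 574, 564 and 549 at 1 h, and 640.3, 584 and 571 at 6 d. The regions overlapped in each condition. All 1 h pools lay below all naive pools of the same region, in dHC as in PL, as was so for 1.77% of all genes.

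Grin2a, which encodes the subunit added as circuits mature, was higher in every dHC pool than in any PL pool. Its CPM in dHC was 209, 277 and 271 in the naive pools, 284, 264 and 311 at 1 h, and 246, 291 and 313 at 6 d. In PL it was 124.3, 121 and 120.5 in the naive pools, 79.9, 119.6 and 103 at 1 h, and 132.9, 109.9 and 104 at 6 d. The lowest dHC pool, naive pool 1, still stood above the highest PL pool, 6 d pool 1. Of all genes tested, 14.6% were higher in all 9 dHC than in all 9 PL libraries, and 29.7% separated the regions in either direction.

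Grin2b, which encodes the subunit that docks CaMKII, overlapped between the regions in naive and 6 d pools but not at 1 h. Its CPM in dHC was 84.0, 98.1 and 107 in the naive pools, 113, 109 and 148 at 1 h, and 103, 108 and 119 at 6 d. In PL it was 90.3, 87.2 and 92.8 in the naive pools, 59.3, 102 and 90.9 at 1 h, and 109, 80.8 and 76.9 at 6 d. The highest value was that of dHC 1 h pool 3 and the lowest that of PL 1 h pool 1. At 1 h the regions did not overlap for 57.5% of all genes.

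Camk2a, which encodes the kinase subunit downstream of the receptor, was higher in every dHC pool than in any PL pool. Its CPM in dHC was 2638, 2877 and 3102 in the naive pools, 2883, 2946 and 3098 at 1 h, and 2892, 2723 and 3011 at 6 d. In PL it was 1344, 1294 and 1461 in the naive pools, 1479, 1622 and 1470.2 at 1 h, and 1256, 1279 and 1321 at 6 d. Within dHC the conditions overlapped, whereas in PL every 1 h pool was above every naive pool and every 6 d pool. In either direction, PL 1 h and naive pools did not overlap for 20.4% of all genes, and PL 6 d and 1 h pools for 19.6%. The share of genes above both groups was not computed.

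**Figure D1:**
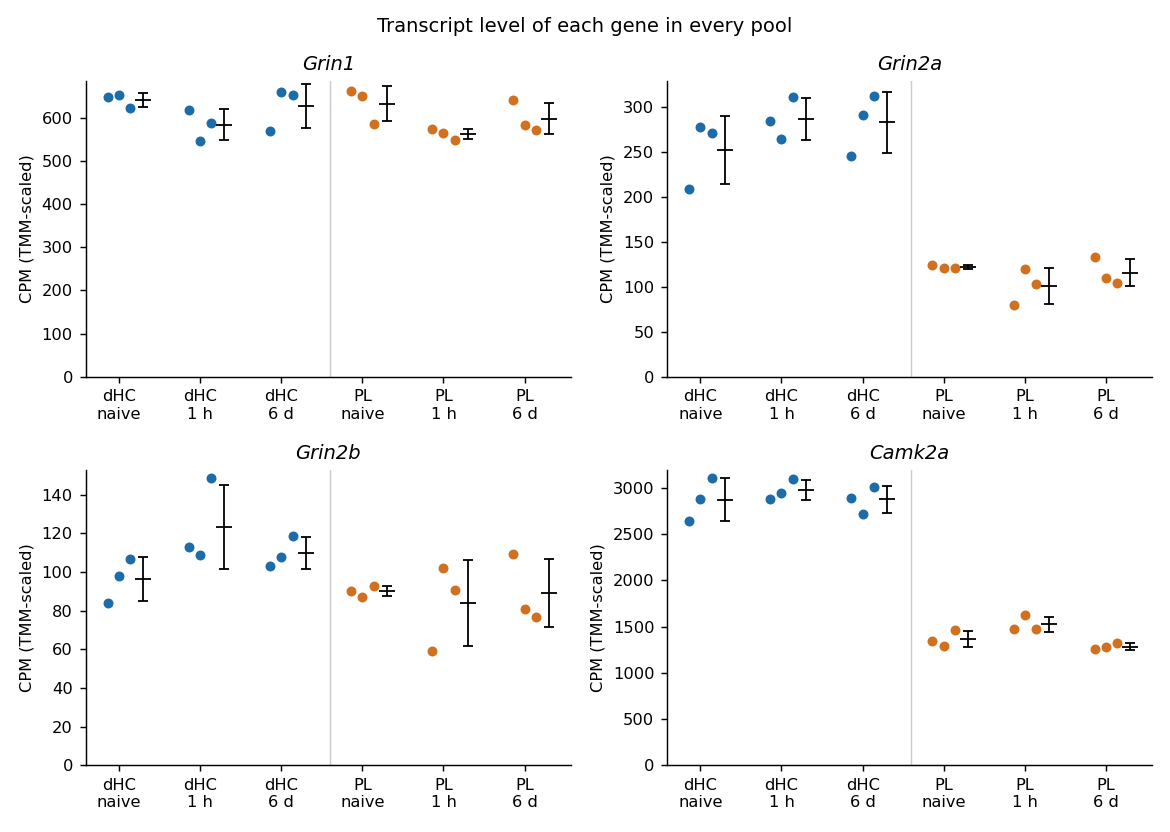
CPM of each gene (vertical axis, from 0) in every pool, by group (horizontal axis; dHC blue, PL orange). Points are pools 1 to 3 from left to right, and the bar beside them is the mean with the SD of the 3 pools. Grin2a and Camk2a in dHC lie above all PL pools, and Grin1 lies between 547 and 662 CPM throughout.

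The order of the group means followed the same division. For Camk2a it ran from dHC at 1 h (2975 ± 110.4 CPM, SD, n = 3, as for all means here) over dHC at 6 d (2875 ± 144.7) and naive dHC (2872 ± 232) to PL at 1 h (1524 ± 85.2), naive PL (1366 ± 85.6) and PL at 6 d (1285 ± 33.3). For Grin2a it ran from dHC at 1 h (286 ± 23.6), dHC at 6 d (283 ± 34.1) and naive dHC (252 ± 37.8) to naive PL (122 ± 2.166), PL at 6 d (116 ± 15.1) and PL at 1 h (101 ± 19.9). In both orders the step from the lowest dHC group to the highest PL group was the only one where neighbours did not overlap, except that PL at 1 h and naive PL also did not overlap for Camk2a. Grin2b was highest in dHC at 1 h (123 ± 21.7), followed by dHC at 6 d (109.8 ± 8.17), naive dHC (96.2 ± 11.4), naive PL (90.1 ± 2.79), PL at 6 d (88.9 ± 17.6) and PL at 1 h (84.1 ± 22.1), with each group overlapping the next. Grin1 was highest in naive dHC (641 ± 15.8), followed by naive PL (633 ± 40.6), dHC at 6 d (628 ± 50.7), PL at 6 d (598 ± 36.8), dHC at 1 h (584 ± 35.5) and PL at 1 h (562 ± 12.4), again with each group overlapping the next.

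The regions were then compared in each condition with edgeR's quasi-likelihood test over 14784 genes and Benjamini-Hochberg adjustment. Each comparison contrasted separate libraries, but all came from the same fit over the 18 libraries. They therefore share the filter, the scaling and the estimate of spread. A gene was called where the adjusted p was below 0.05. In naive rats 2 of the 4 genes were called, Camk2a and Grin2a, both higher in dHC, where 22.9% of all genes tested were called higher in dHC and 46.3% in either direction. The regions differed for so many genes that the call by itself does not set these genes apart. Camk2a had a log2 fold difference, dHC over PL, of 1.07 (SE 0.06, 95% interval 0.95 to 1.20, edgeR adjusted p = 3.43e-14), a level 2.10-fold that of PL. For Grin2a the difference was 1.05 (SE 0.11, interval 0.81 to 1.28, edgeR adjusted p = 1.32e-08). Their naive dHC and PL pools did not overlap, as was so for 54.3% of all genes. These differences were larger in size than those of 89.0% and 88.6% of all genes tested.

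Grin1 differed by 0.02 between naive dHC and naive PL on the log2 scale (interval −0.11 to 0.15, edgeR adjusted p = 0.846), so that a difference above 1.11-fold in either direction lay outside the interval. Its estimates at 1 h and 6 d were 0.05 (interval −0.07 to 0.18) and 0.07 (interval −0.06 to 0.20). Grin2b differed by 0.09 in naive rats (interval −0.20 to 0.38, edgeR adjusted p = 0.623).

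At 1 h after training 3 of the 4 genes were called higher in dHC than in PL, against 23.9% of all genes in that direction and 47.9% in either. The same 3 had pools that did not overlap, against 57.5% of all genes. Grin2a differed by 1.51 (interval 1.27 to 1.74) and Camk2a by 0.97 (interval 0.84 to 1.09). Grin2b was called at this time, with a difference of 0.56 (SE 0.14, interval 0.27 to 0.84, edgeR adjusted p = 0.00165). It was 0.36 without PL 1 h pool 1, the pool with the lowest Grin2b value (edgeR adjusted p = 0.0235), and the adjusted p stayed between 2.06e-13 and 0.0269 over 24 alternatives.

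At 6 d Camk2a and Grin2a, 2 of the 4 genes, were again called higher in dHC, against 23% of all genes in that direction and 45.8% in either, and their pools did not overlap, against 50.8% of all genes. Camk2a differed by 1.16 (interval 1.03 to 1.29) and Grin2a by 1.29 (interval 1.05 to 1.52). The Grin2b difference of 0.30 (interval 0.01 to 0.59) did not pass (edgeR adjusted p = 0.0830). Leaving out PL 6 d pool 1 brought it to 0.48 (edgeR adjusted p = 0.00711), and leaving out PL 1 h pool 1 to 0.31 (edgeR adjusted p = 0.0292), both past the threshold. Its adjusted p spanned 0.000151 to 0.296 in 24 alternatives.

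**Figure D2:**
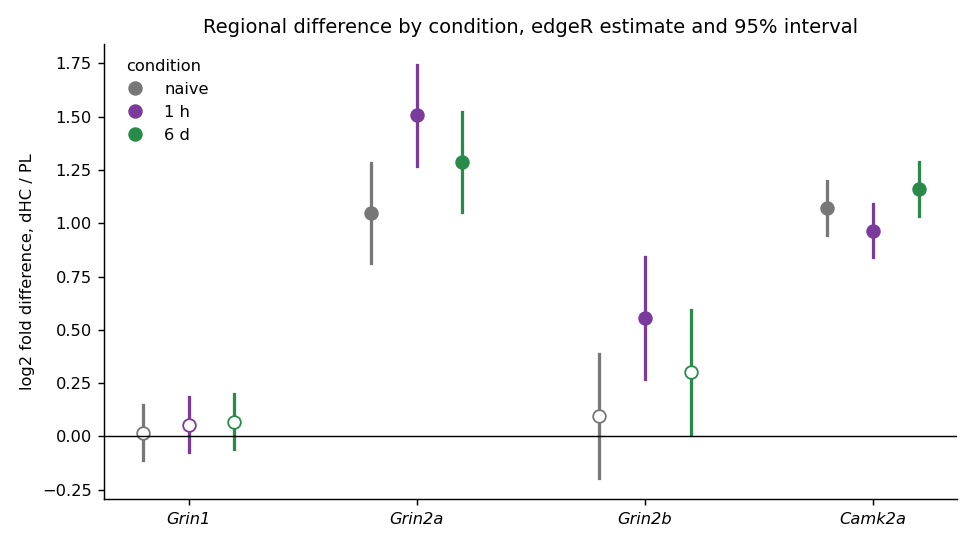
Log2 fold difference, dHC over PL (vertical axis), for each gene (horizontal axis) in naive rats and at 1 h and 6 d, with 95% intervals. Filled points were called by edgeR. Camk2a and Grin2a lie near or above 1 in every condition, Grin1 lies near 0, and Grin2b is filled at 1 h.

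The balance of subunit transcripts can be read from the ratio of read counts inside each library, without any scaling between libraries. Gene length cancels when such ratios are compared. These are RNA counts, and the subunit proteins were not measured. The Grin2a to Grin2b count ratio ran from 2.10 to 2.83 over the 9 dHC libraries, with a median of 2.52, and from 1.14 to 1.38 over the 9 PL libraries, with a median of 1.35. The regions did not overlap, and relative to Grin2b there was 1.94 times as much Grin2a in dHC as in PL (log2 difference 0.96, two-sided exact permutation test within conditions, p = 0.00025, adjusted p = 0.00233 over 28 ratio tests). This is the smallest p that the permutations can give. The dHC library closest to PL was 1 h pool 3, the library with the most Grin2b.

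Set against Grin1, Grin2a was 2.36 times as high in dHC as in PL (exact permutation p = 0.00025, adjusted p = 0.00233) and Camk2a 2.03 times (exact permutation p = 0.00025, adjusted p = 0.00233), each without overlap between the 9 dHC and the 9 PL libraries. The Camk2a to Grin1 count ratio ran from 4.07 to 5.39 in dHC and from 1.96 to 2.88 in PL. Grin2a and Camk2a already separated the regions by themselves while Grin1 differed little, so these ratios restate that separation. The share of other gene pairs whose ratio separates the regions was not computed. Grin2b to Grin1 was 1.21 times as high in dHC, with overlap between the regions, and failed the correction (exact permutation p = 0.016, adjusted p = 0.112). It passed without dHC naive pool 1, at a log2 difference of 0.31 (exact permutation adjusted p = 0.0333), and the adjusted p spanned 0.0333 to 0.331 in 19 alternatives.

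**Figure D3:**
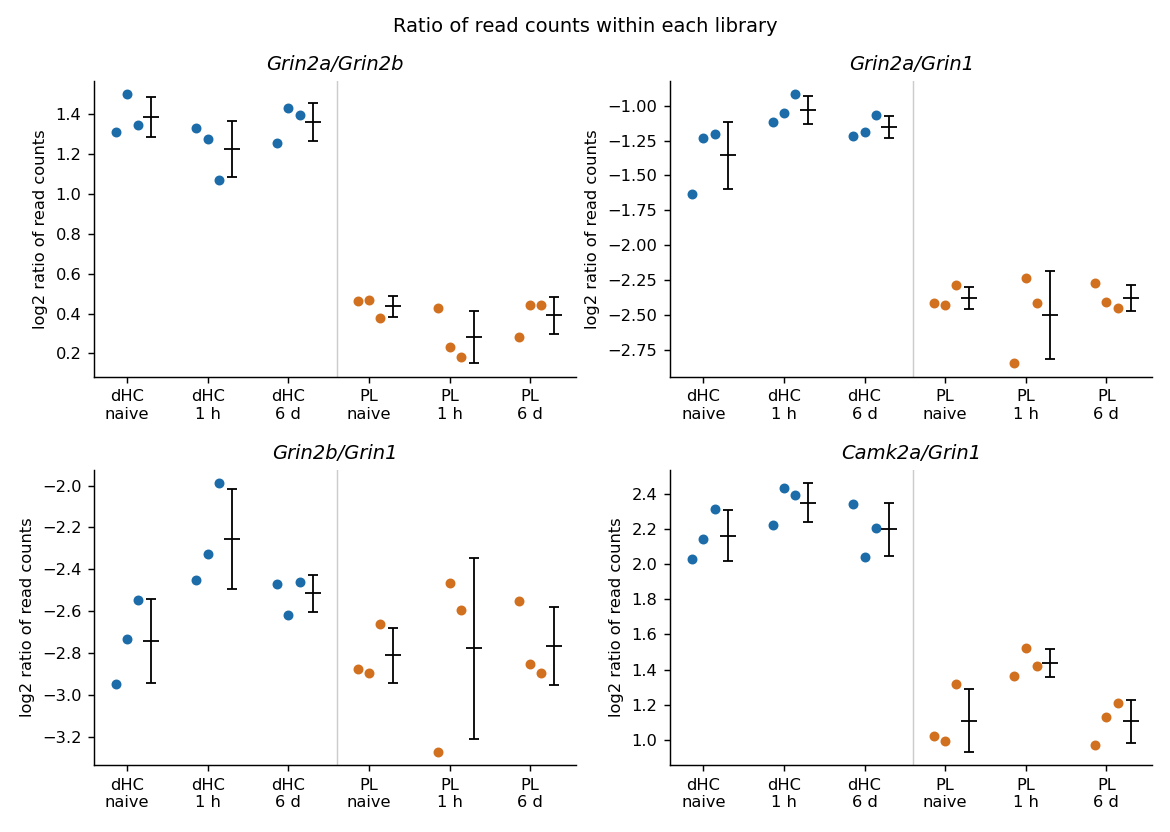
Log2 ratio of read counts between a pair of genes inside each library (vertical axes, not starting at 0), by group (dHC blue, PL orange). Bars give the mean and SD of 3 pools. Ratios with Grin2a or Camk2a on top separate the regions completely, while Grin2b to Grin1 overlaps.

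The change after training was tested within each region over its 9 libraries, in 14305 genes in dHC and 14318 in PL. In PL 1 h after training, 0 of the 4 genes were called by edgeR, DESeq2 or limma voom, where edgeR called 1.44% of all genes tested. By edgeR, 3 of the 4 had an unadjusted p under 0.05, as did 15.0% of all genes. For 3 of them the 1 h pools did not overlap the naive pools, as was the case for 20.4% of all genes. Camk2a had a log2 fold change of 0.16 (SE 0.06, interval 0.04 to 0.29, edgeR adjusted p = 0.178), Grin1 one of −0.16 (SE 0.06, interval −0.28 to −0.04, edgeR adjusted p = 0.178) and Grin2a one of −0.27 (SE 0.10, interval −0.48 to −0.05, edgeR adjusted p = 0.232). Grin2b had a change of −0.09 (interval −0.37 to 0.19). Without PL 1 h pool 1 the Grin2a estimate was −0.12 and that of Grin2b turned to 0.11, whereas without PL 1 h pool 2 they were −0.41 and −0.26.

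In dHC 1 h after training, 0 of the 4 genes were called by edgeR, DESeq2 or limma voom, where edgeR called 0.224% of all genes. Grin1 and Grin2b had an unadjusted edgeR p under 0.05, as did 10.4% of all genes, and these were also the 2 genes whose 1 h pools did not overlap the naive pools, against 17.1% of all genes. Grin2b had the largest estimate of the 4, a log2 fold change of 0.36 (SE 0.10, interval 0.14 to 0.58, edgeR adjusted p = 0.187), from 123 ± 21.7 CPM at 1 h and 96.2 ± 11.4 CPM in naive dHC (SD, n = 3 each). It was 0.20 without 1 h pool 3, with an edgeR adjusted p of 0.729. Without a filter on low counts it was called at 0.36 (edgeR adjusted p = 0.000131), and the adjusted p spanned 0.000131 to 0.729 in 17 alternatives. Grin1 had a change of −0.13 (interval −0.26 to −0.01), Grin2a one of 0.18 (interval −0.02 to 0.38) and Camk2a one of 0.05 (interval −0.07 to 0.17). Without dHC naive pool 1 the estimate was 0.06 for Grin2a and −0.01 for Camk2a.

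Grin1 was the gene that lay below naive without overlap in both regions at 1 h, as did 1.77% of all genes, and it was not called in either region. Its mean was 584 ± 35.5 CPM at 1 h and 641 ± 15.8 CPM in naive dHC, and 562 ± 12.4 CPM at 1 h and 633 ± 40.6 CPM in naive PL (SD, n = 3 each). Over the 17 alternatives the change ran from −0.18 to −0.09 in dHC and from −0.21 to −0.14 in PL. Leaving out a pool could not turn its sign, since the pools did not overlap.

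At 6 d against naive, 0 of the 4 genes were called by edgeR, DESeq2 or limma voom in either region, where edgeR called 0% of all genes in dHC and 0% in PL, and 0 of the 4 had an unadjusted edgeR p under 0.05. For 0 of the 4 were the 6 d pools clear of the naive pools, against 9.27% of all genes in dHC and 8.18% in PL. Camk2a had a log2 fold change of 0.00 in dHC (interval −0.12 to 0.12) and −0.08 in PL (interval −0.20 to 0.04). Grin1 had −0.03 in dHC (interval −0.16 to 0.10) and −0.07 in PL (interval −0.19 to 0.05). Grin2a had 0.17 (interval −0.03 to 0.37) and Grin2b 0.19 (interval −0.03 to 0.41) in dHC, against −0.07 (interval −0.28 to 0.15) and −0.01 (interval −0.29 to 0.27) in PL. Without dHC naive pool 1 the dHC estimates were 0.04 for Grin2a and 0.10 for Grin2b. In PL the Grin2b estimate ran from −0.18 to 0.08 with each pool left out.

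These intervals bound the difference between trained and naive pools. Over the 8 intervals at 6 d the outermost bounds were a fall of 18.2% and a rise of 32.7%, both for Grin2b, in PL and in dHC. Over the 8 intervals at 1 h they were a fall of 28.3%, for Grin2a in PL, and a rise of 49.0%, for Grin2b in dHC. With these fits, all 24 intervals of the training comparisons, the 8 of 6 d against 1 h included, stayed within 1.5-fold in either direction, that of Grin2b in dHC at 1 h narrowly, at 1.49-fold. Of 408 intervals under the alternatives, 6 reached 1.5-fold, all at 1 h. They were 5 for Grin2b in dHC, up to 1.603-fold without naive pool 3, and 1 for Grin2a in PL, down to 0.650-fold without 1 h pool 2. The bounds were tightest for Camk2a and Grin1, whose intervals were narrower than those of at least 92.4% of all genes in each training comparison. Those of Grin2b in PL were wider than the median gene's.

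**Figure D4:**
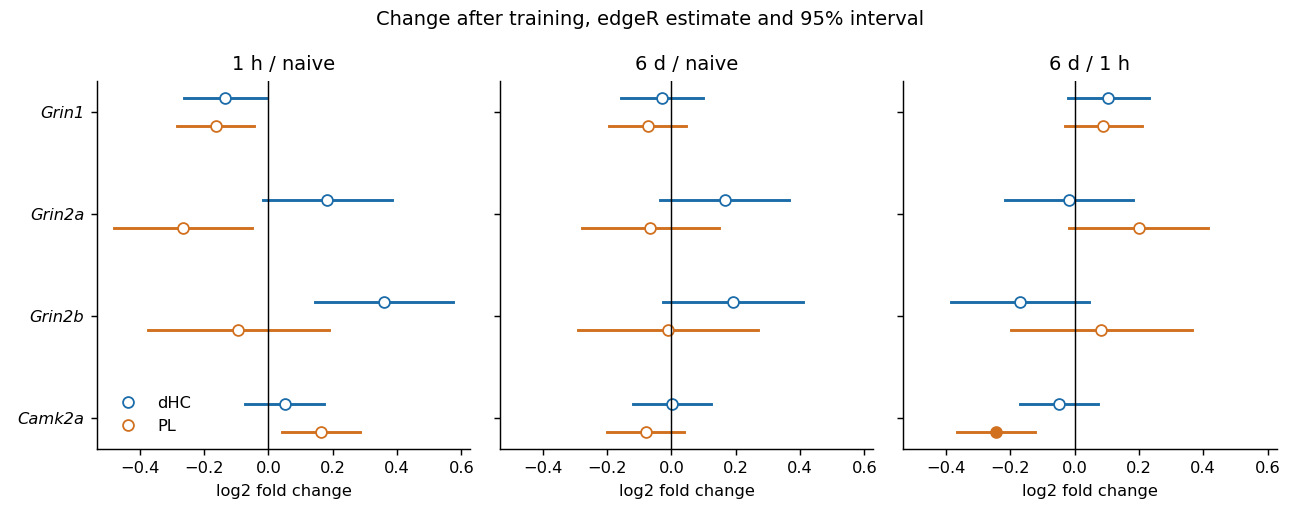
Log2 fold change after training (horizontal axes) for each gene, with 95% intervals, in dHC (blue, upper) and PL (orange, lower). The filled point, Camk2a in PL at 6 d over 1 h, was called by edgeR. All intervals lie between −0.48 and 0.58.

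Between the times after training, 1 of the 4 genes was called. Camk2a in PL was lower at 6 d, at 1285 ± 33.3 CPM, than at 1 h, at 1524 ± 85.2 CPM (SD, n = 3 each), a log2 fold change of −0.24 (SE 0.06, interval −0.37 to −0.12, edgeR adjusted p = 0.0275). In this comparison 2.21% of all genes were called in either direction, 1.05% of all genes were called lower, and 19.6% had pools that did not overlap. The call was lost without PL 1 h pool 2 (−0.20, edgeR adjusted p = 0.171), PL 1 h pool 3 (−0.27, edgeR adjusted p = 0.0587) or PL 6 d pool 2 (−0.25, edgeR adjusted p = 0.0565), and the adjusted p spanned 0.000614 to 0.171 in 17 alternatives. The same gene differed by −0.05 in dHC between 6 d and 1 h (interval −0.17 to 0.07). In dHC 0 of the 4 genes were called by edgeR, DESeq2 or limma voom, with 0 at an unadjusted edgeR p under 0.05, where edgeR called 1.1% of all genes, and 0 of the 4 had pools that did not overlap, against 18% of all genes. The comparisons of 6 d and of naive with 1 h share the 1 h libraries.

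Whether the change at 1 h differed between the regions was tested directly over all 18 libraries. The difference of the changes, dHC minus PL, was 0.46 for Grin2a (SE 0.16, interval 0.13 to 0.79, edgeR adjusted p = 0.516) and 0.46 for Grin2b (SE 0.20, interval 0.05 to 0.87, edgeR adjusted p = 0.640). Without PL 1 h pool 1 the estimates were 0.31 for Grin2a and 0.25 for Grin2b. Without dHC 1 h pool 3 that of Grin2b was 0.30. Neither gene passed, with 0 of the 4 genes called by edgeR, DESeq2 or limma voom and 0.0947% of all genes called by edgeR. At an unadjusted edgeR p under 0.05 there were 2 of the 4, and 7.08% of all genes. Both passed without a filter on low counts, at 0.45 (edgeR adjusted p = 0.00102 for Grin2a and 0.00470 for Grin2b), and adjusted p ran up to 0.944 for Grin2a and 0.998 for Grin2b over 24 alternatives. For Camk2a the difference was −0.11 (interval −0.28 to 0.07) and for Grin1 0.04 (interval −0.15 to 0.22). At 6 d the estimates ran from 0.05 for Grin1 to 0.24 for Grin2a, with 0 of the 4 genes called by edgeR, DESeq2 or limma voom, 0 at an unadjusted edgeR p under 0.05 and 0% of all genes called by edgeR.

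Ratios inside a library were also compared between conditions. None of the 24 tests passed, and with 3 pools against 3 the exact permutation p cannot fall below 0.1, which is 0.311 after adjustment here. These ratios reuse the counts of the single-gene comparisons above. How often ratios of other gene pairs are without overlap was not computed. The Camk2a to Grin1 count ratio in PL ran from 2.58 to 2.88 over the 3 pools at 1 h and from 1.99 to 2.49 over the 3 naive pools (exact permutation p = 0.1), without overlap. In PL at 6 d it ran from 1.96 to 2.31, below every 1 h pool. In dHC the Grin2b to Grin1 count ratio was 0.211 ± 0.0361 at 1 h and 0.150 ± 0.0207 in naive pools (SD, n = 3 each, exact permutation p = 0.1), without overlap. At 6 d it was 0.175 ± 0.0107, below every 1 h pool (exact permutation p = 0.1). The Grin2a to Grin1 count ratio in dHC was likewise higher at 1 h, 0.491 ± 0.0346, than in naive pools, 0.394 ± 0.0623, without overlap (exact permutation p = 0.1). The Grin2a to Grin2b ratio in dHC was 2.35 ± 0.221 at 1 h and 2.62 ± 0.184 in naive pools (SD, n = 3 each, exact permutation p = 0.2), with overlap.

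Grin2a and Grin2b varied together from pool to pool. After the mean of each region was removed from log2 CPM, the Pearson correlation between them over the 18 libraries was 0.87 (Spearman 0.80), given as a description, since values of a library share its depth and handling. It was 0.71 without the 2 libraries farthest from the median of Grin2a, PL 1 h pool 1 and dHC naive pool 1, and 0.91 with the mean of each group removed instead. Of 14783 other genes, 1 had a higher correlation with Grin2b than Grin2a had, and 6 had a higher one with Grin2a than Grin2b had. The sign was kept in this ranking, so strong negative correlations were not counted. In PL 1 h pool 1, both were lowest of all PL pools, with 0.48 less Grin2a and 0.54 less Grin2b than the PL mean on the log2 scale. That library also had the lowest share of reads outside gene models in PL, 10.5%, against 11.2% to 13.6% in the other PL libraries. In dHC both genes were lowest in naive pool 1, by 0.38 for Grin2a and 0.37 for Grin2b below the dHC mean. There the share was 11.6%, inside the dHC range of 10.1% to 12.4%. The part of this share in the result was not tested.

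Camk2a and Grin1 did not follow them. The correlation of Camk2a was 0.01 with Grin2a and 0.22 with Grin2b, and that of Grin1 was 0.36 with Grin2a and 0.02 with Grin2b, all with region means removed. Camk2a and Grin1 had a correlation of −0.52 with each other (Spearman −0.54), and of −0.40 with group means removed. The genes most like Camk2a over the 18 libraries were ENSRNOG00000004060 and ENSRNOG00000005933, with correlations of 0.88 and 0.88, and the files give them no name.

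**Figure D5:**
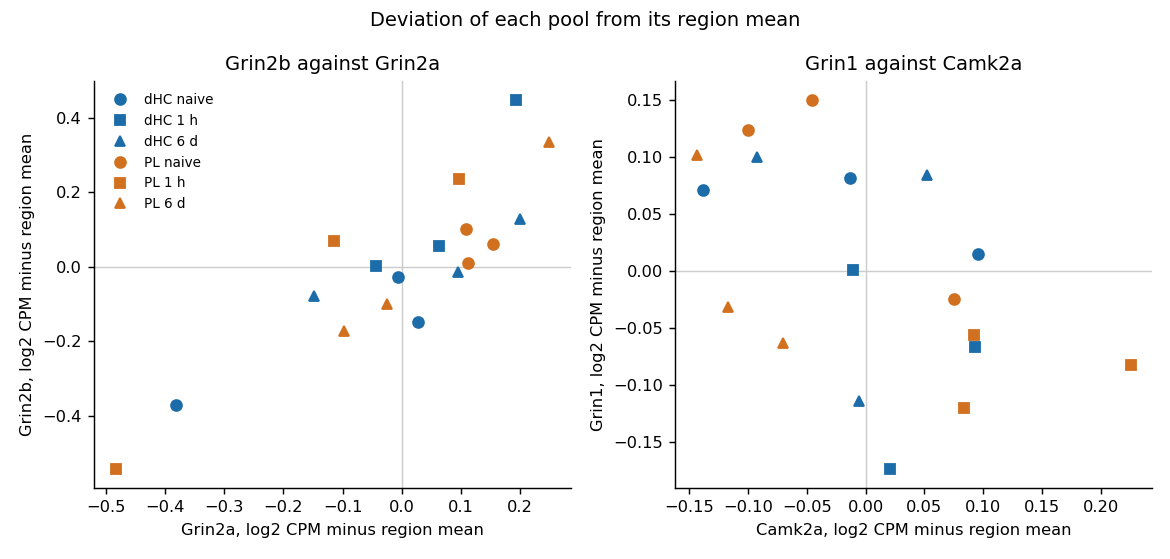
Deviation of each pool from its region mean, in log2 CPM, for Grin2b against Grin2a (left) and Grin1 against Camk2a (right). Colours give the region (dHC blue, PL orange) and shapes the condition. The left panel rises along a diagonal (r = 0.87), with PL 1 h pool 1 at the lower left, and the right panel falls (r = −0.52).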

How the data were processed

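The authors deposited whole-number read counts per Ensembl gene, not normalized, with 5 further rows for reads given to no gene. Neither library sizes nor tests used these rows. They held, as shares of all reads, 42.0% to 51.8% not aligned, 5.56% to 7.18% aligned to several places, 10.1% to 13.6% outside gene models and 0.599% to 0.706% on several genes. A stranded kit selecting polyadenylated RNA was used on 200 ng per pool, with 12 PCR cycles and paired reads of 150 nt, per the labels' protocols. Rnor_6.0, bedtools 2.17.0, Picard 1.126 and DESeq2 appear in the submitters' processing notes without their roles. Aligner, counter, gene annotation and strand handling were not given in the sources used here.

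The tables give identifiers without names. The reference table matched 0 of 32662 identifiers, so the 4 genes carry the names given with the choice of genes, and 16 lists of pathway genes and cell type markers (97 entries) were not analysed here, nor was the tissue checked against its markers. Genes and lists were chosen with earlier results of these data known. The rule for named genes took the 4 genes in every comparison and at most 2 further identifiers, of genes most like any of the 4. Those printed are the 2 of Camk2a. The highest correlations of Grin1, Grin2a and Grin2b with another gene were 0.90, 0.93 and 0.92.

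Tests used R 4.3.3 and edgeR 4.0.16 (glmQLFit and glmQLFTest, two-sided, TMM factors, filterByExpr by group, called at an adjusted p under 0.05). Standard errors came from the F statistic, and intervals are at 95%, each for a single gene and not adjusted for their number. Correlations used log2 CPM with a prior count of 2. Alternatives were DESeq2 1.42.0, limma 3.58.1 voom, other scalings, no filter, a replicate block, other sets of libraries and each pool left out. All 18 replicate pairs differed by more than sampling noise (chi-square per degree of freedom 1.67 to 4.98), and tests were tried on simulated data. The labels call the pools biological replicates and name no batch. Counts of 3 set a floor of counting error only, since PCR copies are not told apart.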

Additional observations from a re-analysis of the deposited data

How the results depend on the processing

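The regional calls of Camk2a and Grin2a in naive, 1 h and 6 d rats, and that of Grin2b at 1 h, kept their direction and passed in each of 24 alternatives. Without a filter on low counts, edgeR also called Grin2b in dHC at 1 h (0.36, adjusted p = 0.000131), Grin2a in PL at 1 h (−0.26, adjusted p = 0.0180), the regional difference of Grin2b at 6 d (0.31, adjusted p = 0.000151), and the regional differences of the 1 h change of Grin2a (0.45, adjusted p = 0.00102) and Grin2b (0.45, adjusted p = 0.00470), so that 1, 1, 3 and 2 genes were called in these comparisons. The cause was not tested. In that fit more of all genes were called too: 275 in dHC and 564 in PL at 1 h against 32 and 206, 31 and 8 at 6 d against 0 and 0, 623 and 675 between 6 d and 1 h against 158 and 317, and 117 and 12 for the regional differences at 1 h and 6 d against 14 and 0. Over the alternatives these counts ran from 14 to 275, 87 to 574, 0 to 31, 0 to 8, 18 to 623, 149 to 675, 6 to 117 and 0 to 12.

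The main fits did not treat same-numbered pools as pairs, and the tests between regions took the 18 libraries as independent. Of 27 correlations between deviations of same-numbered pools (−0.12 to 0.20), 3 were over 0.1. In 0 of 9 pairs of groups were all over 0.1. Such correlations cannot show how the pools were made. With 12 of 27, a library correlated best with its own number among the 3 pools of the other group. Whether this count exceeds chance was not tested. The replicate block moved Grin2b in dHC at 1 h to 0.36 with an edgeR adjusted p of 0.00901, so that 1 gene was called there in the place of 0, and changed no other call of the 4 genes.

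With each pool left out in turn, Camk2a in PL between 6 d and 1 h ran from −0.27 to −0.20, with 0 to 1 gene called. The regional difference of Grin2b at 6 d ran from 0.21 to 0.48, the Grin2b to Grin1 log2 ratio between regions from 0.20 to 0.33, and that ratio in PL between 6 d and 1 h from −0.24 to 0.17. Each of the 4 genes had at least 523 reads in every library, and the part of depth in the width of the intervals was not tested.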
